A study of Mus musculus with 12 samples.

Results

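The effect of a MEK inhibitor on gene expression was compared between an early and a late harvest of the same cell line, to find the genes whose response to the drug grew, faded or turned from one direction to the other. The cells were B16-OVA, melanoma cells of the mouse with ovalbumin as a model antigen, in culture. The day after seeding, GDC-0623, which blocks the kinase MEK (MEKi), was added to 100 nM, or DMSO in its place, and RNA was taken 24 h or 72 h later. This gave 4 groups of 3 arrays: DMSO 24 h, MEKi 24 h, DMSO 72 h and MEKi 72 h, and all 12 arrays of the series entered the contrast. The measure was the MEKi effect at 72 h (MEKi minus DMSO) minus the MEKi effect at 24 h, in log2 units, so that 1 is a 2-fold difference between the effects. By arithmetic it is also the change from 24 h to 72 h with MEKi minus the change with DMSO. It was computed for 45037 of the 45101 probe sets on the array, those that were not controls, and 18193 genes had a probe set of their own. The cells are a single line without stroma or immune cells, and the sources used here do not say whether medium or drug was renewed before 72 h.

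MEK phosphorylates and activates ERK, the last kinase of the RAS, RAF and MEK cascade that passes growth factor signals to the nucleus. ERK activity switches on cyclin D, ETS and AP-1 transcription factors and, as a brake, its own inhibitors of the DUSP, Sprouty and Spred families, whose mRNA levels are therefore used as a readout of the pathway. When the cascade is blocked, these brakes are lost too, and in many melanoma cells signalling from upstream receptors partly returns with time. Many cells without ERK activity stop entering the division cycle.

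Melanocyte genes marked all samples. The 7 fixed markers (Tyr, Tyrp1, Dct, Pmel, Mlana, Mitf and Sox10) had group means of 12.01 to 14.36, and the difference of MEKi effects was called in none of them by its brightest probe set (limma), though 1 of the 3 probe sets of Tyr was called lower. Tyrp1, Dct, Pmel and Mlana had group means of 13.95 to 14.36, near the highest value on any array, 14.47. How far a ceiling of the signal limits their differences was not tested. Markers of other cell types were low: group means were 2.91 to 6.50 for 4 immune markers, 2.90 to 5.16 for 4 fibroblast markers, 3.49 to 5.23 for 3 endothelial markers and 3.47 to 6.48 for 4 epithelial markers, and the difference was called in none. The summed immune markers lay between 17.9 and 18.9 in the 4 groups. In 6 technical measures per array (the 3' minus 5' signal of Gapdh, actin and the Dap and Phe spikes, the median and the interquartile range), the MEKi effects differed by -0.24 to 0.01 between the times, with adjusted p of 0.51 to 1 in exact permutation tests that shuffled drug labels within each time (two-sided, 400 arrangements, of which the smallest p is 0.005). The times themselves stood apart: over the 6 arrays of a time, the Dap spike measure averaged 2.06 ± 0.08 (SD) at the early harvest against 1.42 ± 0.04 at the late one. Each time held both arms, so a shift shared by all arrays of one time drops out of the contrast. The replicates are called biological, but nothing says that each came from its own culture, and the p-values then reflect only how these samples spread, possibly for technical reasons. Precision is limited by the 3 arrays per group: the median SE of the difference over genes was 0.13.

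The MEKi effect differed between 24 h and 72 h for 1358 probe sets, 3.02% of those tested (limma, Benjamini-Hochberg adjusted p under 0.05). For 612 the difference was positive and for 746 negative. Counted once per gene, 358 genes were called higher (1.97% of 18193) and 382 lower (2.1%), and of these 740 genes 47 and 55 differed by at least 2-fold. Signs over all genes were even, with 49.9% positive and 49.8% negative and a median of 0. The number of calls depended on single arrays: it was lowest, 668 probe sets, without MEKi 72 h replicate 2 and highest, 1798, without DMSO 72 h replicate 2.

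Most called genes had a called MEKi effect at only 1 of the times. A gene not called at a time can still have had an effect there. At 24 h the same fit called 853 genes higher (4.69%) and 920 lower (5.06%) with MEKi, and at 72 h 1239 higher (6.81%) and 1503 lower (8.26%). Among the 740 genes, 448 had a called MEKi effect at 72 h only: 230 had a positive difference, with a median effect of -0.08 at 24 h and 0.52 at 72 h, and 218 a negative one, with 0.02 and -0.64. A further 201 were called at 24 h only, 89 with a median effect of -0.48 that came to 0.14 at 72 h and 112 with a median of 0.55 that came to -0.12. In 41 genes the effect was called at both times in opposite directions, in 18 it was called at both in one direction and larger at 72 h, in 6 it was called at both and smaller at 72 h, and 26 were called at neither time. These smaller classes moved most with single arrays: genes that turned sign numbered 17 without MEKi 24 h replicate 2 and 63 without DMSO 72 h replicate 2, and genes that grew 2 and 30 at the extremes.

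**Figure D1:**
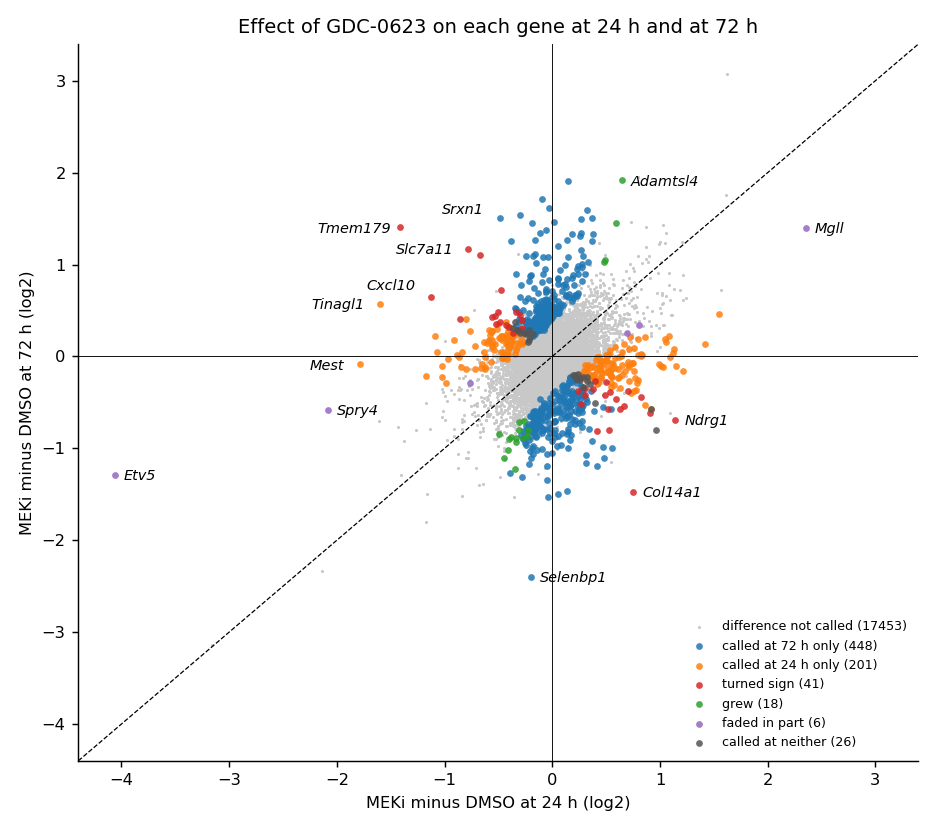
Each point is a gene, placed by its MEKi minus DMSO difference at 24 h (x axis, log2) and at 72 h (y axis, log2); colours give the class of the 740 genes with a called difference and grey the 17453 others. Points on the dashed line have equal effects at both times; Etv5 lies far left with -4.06 and -1.29, and Tmem179 upper left with -1.41 and 1.41.

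Either arm could hold the larger move. Over time, 2887 genes were called higher (15.9%) and 3354 lower (18.4%) at 72 h with DMSO, and 2725 higher (15%) and 3133 lower (17.2%) with MEKi. Of the 358 genes with a positive difference, 122 had a called change over time in the DMSO arm only, 122 in the MEKi arm only, 83 in both in the same direction and 31 in both in opposite directions. Of the 382 with a negative difference these counts were 102, 115, 126 and 39. The genes whose effect was called at 24 h only and had a positive difference moved mostly in the control: 72 of 89 had the larger move with DMSO, with a median change over time of -0.67 against -0.03 with MEKi. The 112 with a negative difference divided more evenly, 59 with the larger move with DMSO and 53 with MEKi. Those called at 72 h only moved more often with MEKi, 150 of 230 with a positive and 148 of 218 with a negative difference. Both arms share the arrays of the contrast, so these counts describe it and are not a separate test.

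Genes that turned sign. The 41 genes had differences of 0.50 to 2.82 in size, and in 39 of them the 3 MEKi arrays lay wholly on opposite sides of the 3 DMSO arrays at the 2 times. The share over all genes was 2.49%, but the class was chosen on these arrays for opposite effects, so nothing is read from the count. Tmem179, a transmembrane protein gene, had the largest positive difference of the genes named. It read 8.31, 8.19 and 8.08 with DMSO and 6.82, 6.67 and 6.85 with MEKi at 24 h, and 6.94, 6.80 and 6.23 with DMSO and 8.05, 8.33 and 7.81 with MEKi at 72 h. The arms thus exchanged places: MEKi was 2.66-fold lower at 24 h and 2.65-fold higher at 72 h, a difference of 2.82 ± 0.23 (SE, adjusted p = 0.000132, limma). Control cells lost 1.54 and treated cells gained 1.28 over time.

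Col14a1, the gene of a collagen that binds to the surface of collagen fibrils, turned the other way. It read 6.66, 6.48 and 6.55 with DMSO and 7.42, 7.41 and 7.11 with MEKi at 24 h, and 6.57, 6.48 and 6.86 against 4.99, 4.96 and 5.55 at 72 h. Here the control stayed level, with a change over time of 0.07, and the treated arrays fell by 2.15, so that the effect went from 0.75 to -1.47 (difference -2.22 ± 0.21, adjusted p = 0.000262). The mean over its 3 probe sets gave a difference of -1.03, and 2 of them were called. The MEKi readings of 4.99 and 4.96 lay within the 2.90 to 5.16 of the fibroblast markers, and how far a floor of the signal limits the late effect was not tested. Erbb3, a receptor of the EGF receptor family that binds neuregulin, had an effect of -0.86 at 24 h and 0.40 at 72 h. Its DMSO arrays read 10.05, 10.06 and 10.06 at 24 h and 9.63, 9.90 and 9.71 at 72 h, and its MEKi arrays 9.15, 9.21 and 9.24 and then 10.05, 10.27 and 10.13. The groups did not overlap at either time (difference 1.26 ± 0.12, adjusted p = 0.000205), but of its 2 probe sets only the brighter one had this sign. Fgfr3, a fibroblast growth factor receptor, went from -0.59 to 0.16, with the effect called at 24 h only. Erbb3 and Fgfr3 were the 2 of 29 receptor tyrosine kinase genes called, both higher (1.97% of all genes).

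Cxcl10, a chemokine that attracts activated T cells, turned sign as well. It read 9.42, 9.35 and 9.32 with DMSO against 8.34, 8.10 and 8.27 with MEKi at 24 h, and 8.84, 9.03 and 8.27 against 9.39, 9.66 and 9.03 at 72 h, where the arms met at 9.03. The difference was 1.77 ± 0.25 (adjusted p = 0.00288). Cela1, an elastase, went from -0.67 to 1.10. Trp53inp1, a p53-induced gene of stress and autophagy, went from 0.53 to -0.80, and Phlda3, a p53 target that restrains AKT, from 0.31 to -0.42. Together with Zmat3 (-0.02 and -0.83), a p53 target that binds RNA, they were the 3 of 24 p53 target genes called lower (2.1% of all genes). Plk3, a stress kinase, was the 1 called higher (1.97% of all genes), with effects of -0.34 and 0.52. Bcl2l1, which encodes the survival protein BCL-XL, turned sign, from -0.32 to 0.28. The MEKi effect on Bcl2l11, which encodes the death-promoting BIM, went from 0.28 to -0.61 and was called at 72 h only. Bid, a death-promoting relative, was called higher (-0.47 and 0.22, with the effect called at 24 h only) and Bnip3 lower. The BCL2 list of 15 thus had 2 called higher (1.97% of all genes) and 2 lower (2.1%).

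**Figure D2:**
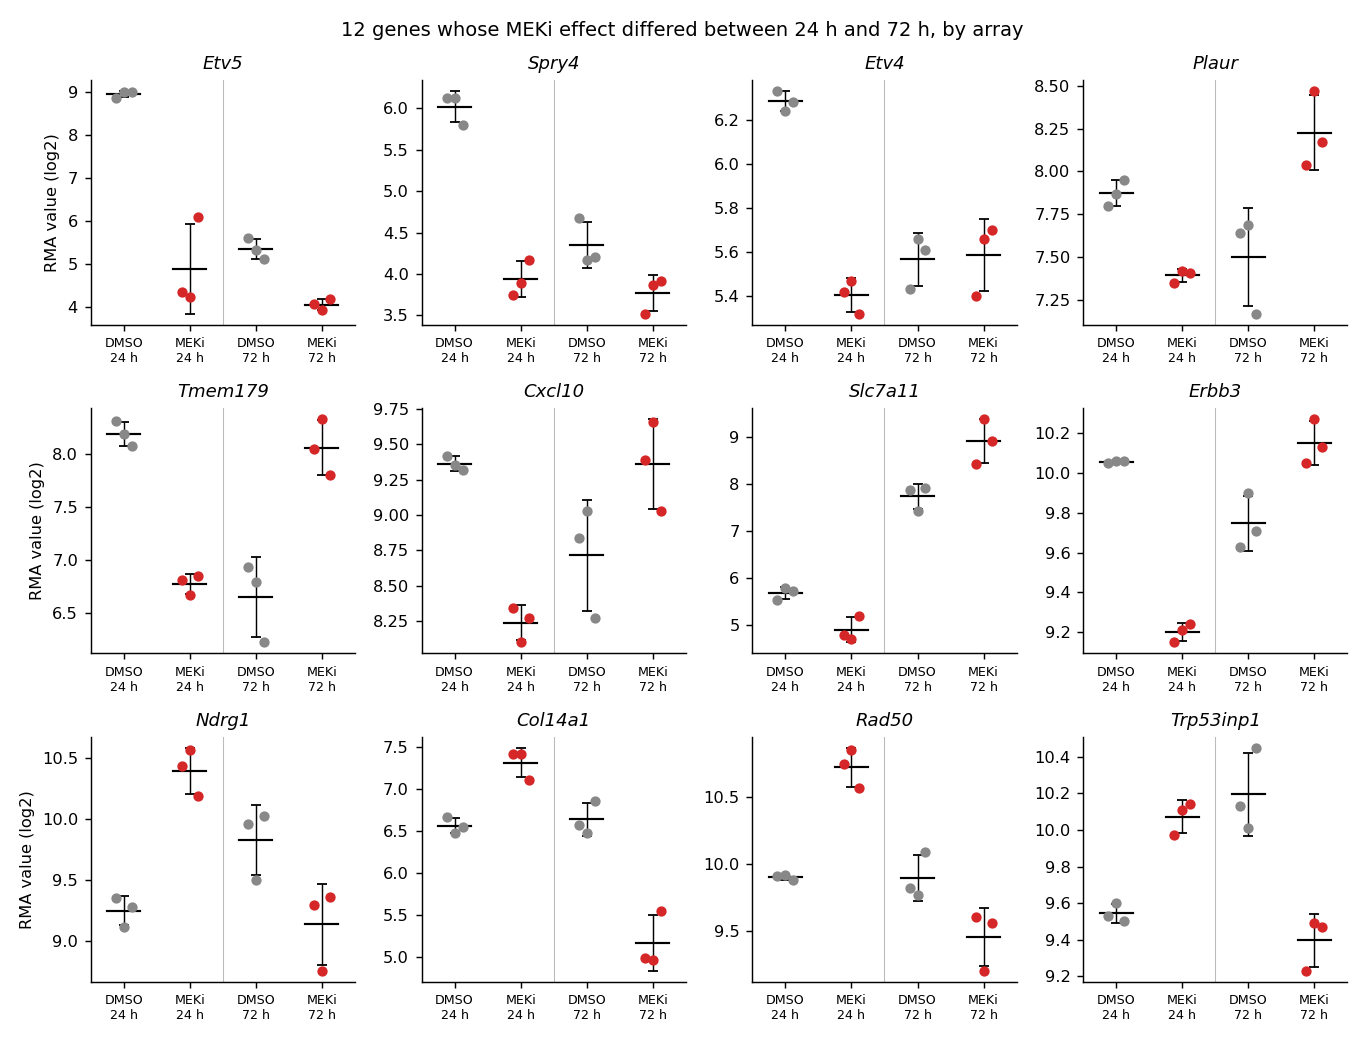
RMA values (log2, y axis of each panel, not starting at 0) of 12 genes with a called difference, with 3 arrays per group as points, the mean as a bar and the SD as whiskers; grey is DMSO and red MEKi, with 24 h left and 72 h right of the vertical line. In Tmem179, Slc7a11, Erbb3, Plaur, Ndrg1, Col14a1, Rad50 and Trp53inp1 the red points change sides between the times without overlap.

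ERK output. The MEKi effect on ERK output genes was higher at 72 h than at 24 h, which for lowered genes means a smaller loss, for 5 of 28 measured (1.97% of all genes) and lower for 0. In all, 25 of the 28 differences were positive. The list's median effect was -0.62 at 24 h and -0.28 at 72 h, and the median difference 0.26, beside 0 for all genes. At 24 h 17 of the 28 were called lower with MEKi (5.06% of all genes), and at 72 h 11 (8.26%). The list's median change over time was -0.34 with DMSO and 0.095 with MEKi. Over time 14 were called lower with DMSO (18.4% of all genes) and 8 with MEKi (17.2%), and 3 and 8 higher (15.9% and 15%). Etv5, an ETS transcription factor of the PEA3 group and a direct ERK target, held the largest MEKi effect at 24 h of the 740 genes. It read 8.86, 8.98 and 8.99 with DMSO and 4.35, 4.22 and 6.08 with MEKi at 24 h, and 5.59, 5.33 and 5.12 against 4.06, 3.93 and 4.18 at 72 h. MEKi was lower at both times with no overlap (fitted effects -4.06 and -1.29, difference 2.77 ± 0.48, adjusted p = 0.00852), and all 3 probe sets were called. Of its 6 MEKi arrays 5 lay within the 2.90 to 5.16 of the fibroblast markers, no detection calls were used here, and how far a floor of the signal limits the late effect was not tested. MEKi 24 h replicate 3 lay closer to the control than the other 2, and without it the difference was 3.37. The same array also lay closest to the control for Spry4, Dusp6, Ccnd1, Myc and Fos, but not for Etv4 and Egr1. The control moved further than the treated cells: from 24 h to 72 h the change in Etv5 was -3.60 with DMSO and -0.83 with MEKi.

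Spry4, a Sprouty inhibitor of receptor signalling, followed the same course. It read 6.13, 6.13 and 5.80 with DMSO against 3.75, 3.89 and 4.17 with MEKi at 24 h, and 4.67, 4.17 and 4.21 against 3.52, 3.87 and 3.91 at 72 h. Its effect went from -2.08 to -0.58 (difference 1.50 ± 0.22, adjusted p = 0.00351), with a change over time of -1.67 in the control and of -0.17 with MEKi, whose arrays were at the level of those markers at both times, so that a further fall could not be told apart from the floor of the signal. The mean over its 4 probe sets gave a difference of 0.50, and only this probe set was called. Etv4, the close relative of Etv5, read 6.33, 6.24 and 6.28 with DMSO and 5.42, 5.47 and 5.32 with MEKi at 24 h. At 72 h its arms overlapped, at 5.43, 5.66 and 5.61 against 5.40, 5.66 and 5.70, and the effect had gone from -0.88 to 0.02.

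Plaur, the urokinase receptor, and Spred3, an inhibitor of RAF activation, passed from a lower to a higher level with MEKi (-0.48 and 0.73, and -0.52 and 0.36). For Plaur this was a rise with MEKi, from 7.35, 7.42 and 7.41 at 24 h to 8.04, 8.47 and 8.17 at 72 h. Other ERK targets were not called. Dusp6, an ERK phosphatase often used as a readout, had effects of -1.41 and -1.29, with a 95% interval of the difference from -0.35 to 0.59 (adjusted p = 0.866). Ccnd1, which encodes cyclin D1, had -0.85 and -0.37 (interval -0.03 to 0.99, adjusted p = 0.351), and Spry2 -0.72 and -0.52.

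Single arrays decided some of the immediate early genes. Egr1, a zinc finger factor induced within minutes of ERK activation, had effects of -3.16 and -3.14. Its MEKi arrays at 72 h read 5.91, 6.47 and 9.87, against 10.47, 10.30 and 10.91 with DMSO, and without MEKi 72 h replicate 3 the difference was -1.21 (adjusted p = 0.0306) in place of 0.01 (adjusted p = 0.997). Myc, the growth-promoting transcription factor, had effects of -0.84 and -1.52, and a difference of -0.68 (adjusted p = 0.303) that was larger and passed the test without that array (adjusted p = 0.0185). Fos read 7.65, 8.06 and 9.42 with MEKi at 72 h, with the highest value again in replicate 3. With DMSO at 72 h replicate 3 was also the highest, but by less, at 10.91 for Egr1, 9.86 for Myc and 9.52 for Fos. What set MEKi 72 h replicate 3 apart was not tested.

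G1 regulators divided. Cdk6, a kinase that drives entry into S phase with D cyclins, had an effect of -1.02 at 24 h and -0.22 at 72 h, and Ccnd3, cyclin D3, of -0.49 and 0.20. Cdk6 read 9.03, 9.09 and 9.09 with DMSO and 7.99, 8.00 and 8.16 with MEKi at 24 h, and by 72 h the control had come down to 7.93, 8.02 and 7.52, beside 7.56, 7.68 and 7.57. Rbl1, a pocket protein related to RB, was the 1 of 15 genes in this list called lower (-0.06 and -0.65). Neither Ccnd3 nor Rbl1 was called by the mean over its probe sets (differences 0.17, adjusted p = 0.471, and -0.08, adjusted p = 0.72): 2 of 3 probe sets of Ccnd3 and 2 of 4 of Rbl1 had the sign given, and the call of Ccnd3 was lost in 7 of 12 fits without 1 array. Cdkn1b, the CDK inhibitor p27, was not called (0.09 and -0.34).

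Mitosis. The largest share of any list was called among mitosis and G2/M genes: 26 of 41 were lower at 72 h relative to 24 h and 0 higher, where 2.1% of all genes were called lower, and all 41 differences were negative. The median effect was -0.14 at 24 h and -0.68 at 72 h, with 4 members called lower at 24 h (5.06% of all genes) and 40 at 72 h (8.26%). Most members fell over time in both arms, with median changes of -0.38 with DMSO and -0.87 with MEKi. Over time 32 were called lower with DMSO (18.4% of all genes) and 40 with MEKi (17.2%), and 2 and 0 higher (15.9% and 15%). The called differences were of even size, from -0.41 to -0.92, and none reached 2-fold. Leaving out single arrays gave 19 to 29 called members, with the lowest count without DMSO 24 h replicate 3. In a bulk sample, fewer dividing cells and less mitotic RNA per cell cannot be told apart.

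Nusap1, which bundles spindle microtubules, had overlapping arms at 24 h, at 10.54, 10.55 and 10.57 with DMSO and 10.57, 10.53 and 10.56 with MEKi. At 72 h the control stood at 10.66, 10.63 and 10.76 and the treated arrays at 9.67, 9.78 and 9.85, which is 1.89-fold lower (difference -0.92 ± 0.10, adjusted p = 0.000563). Nuf2 and Ndc80, both parts of the kinetochore complex that holds microtubules, went from 0.08 to -0.67 and from -0.15 to -0.88. Kif11, the motor that pushes the spindle poles apart, read 9.51, 9.55 and 9.57 with DMSO and 9.50, 9.49 and 9.48 with MEKi at 24 h, and 9.23, 9.38 and 9.24 against 8.62, 8.34 and 8.51 at 72 h. The treated arrays lay just below the controls at 24 h and well below them at 72 h (difference -0.74 ± 0.11, adjusted p = 0.00406).

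Regulators of mitotic entry and exit moved alike. Ccnb2, a B-type cyclin, went from -0.09 to -0.80, Ube2c, which helps to degrade the cyclins, from -0.19 to -0.81, and Mki67, the proliferation marker Ki-67, from -0.11 to -0.62. In 4 members the effect was called at both times and grew: Aurkb, a kinase that corrects chromosome attachment (-0.23 and -0.87), Aspm, a spindle pole protein (-0.27 and -0.88), Cdc25b, a phosphatase that activates CDK1 (-0.34 and -0.93), and Incenp, the partner of Aurkb (-0.31 and -0.72). Hmgb2, a chromatin protein abundant in cycling cells, had the largest difference of the 14 genes that grew downwards: it read 11.79, 11.80 and 11.80 against 11.51, 11.34 and 11.50 at 24 h and 11.94, 11.94 and 11.82 against 10.80, 10.55 and 10.69 at 72 h. Cdk1 was not called (difference -0.42, adjusted p = 0.0704), nor were Plk1 (-0.45, adjusted p = 0.061) and Foxm1 (-0.17).

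Genes of DNA replication differed less. In that list 3 of 38 were called lower (2.1% of all genes), Rfc4, E2f8 and Rrm1. The call of Rrm1 was lost in 11 of 12 fits without 1 array and in the mean over its probe sets. Of the 38, 14 were called lower with MEKi at 24 h already (5.06% of all genes) and 31 at 72 h (8.26%). The median effect was -0.30 at 24 h and -0.59 at 72 h. Mcm5, a subunit of the replicative helicase, had -0.36 and -0.68 (interval of the difference -0.54 to -0.11, adjusted p = 0.109). E2f8, a repressor of the E2F family, read 10.08, 10.12 and 10.04 with DMSO and 10.29, 10.33 and 10.11 with MEKi at 24 h, and 8.93, 9.17 and 9.25 against 8.63, 8.12 and 8.41 at 72 h. Both arms fell over time, by 0.96 and 1.86, and the treated one further.

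**Figure D3:**
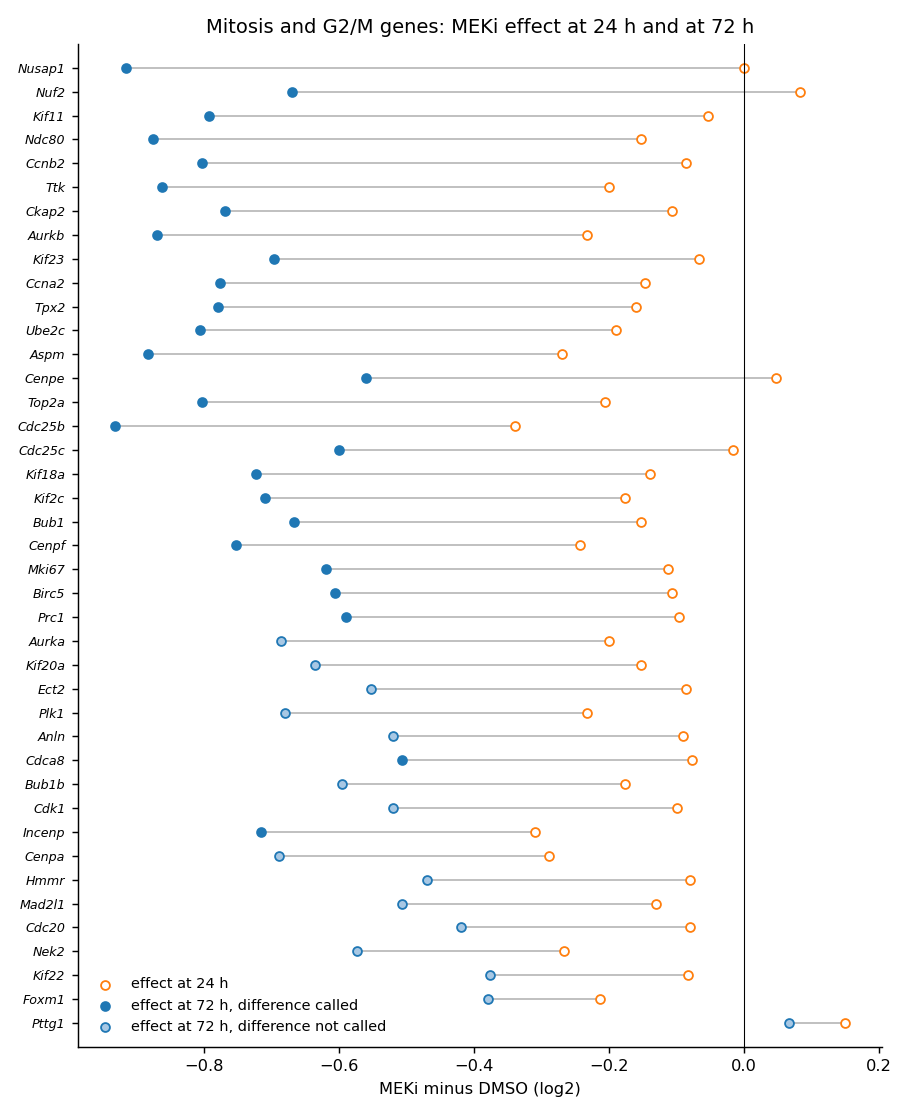
Each row is one of the 41 measured mitosis and G2/M genes, ordered by the difference, with its MEKi minus DMSO value (x axis, log2) at 24 h as an open circle and at 72 h as a blue one, dark where the difference was called (26 genes) and pale where it was not. Every row runs leftwards from 24 h to 72 h, from Nusap1 (0.00 to -0.92) to Pttg1 (0.15 to 0.07).

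The promoters of the mitosis genes share a sequence feature that the choice of members did not use. The CHR element, TTTGAA on either strand, is known to be bound by the DREAM and MuvB complexes that time mitotic genes. In the 300 bases around the start (250 before and 50 after, RefSeq, GRCm38.p6, a gene counted where any of its listed starts matched), it was found in 24 of 34 list members with a promoter entry, 70.6%, against 20.2% of 27025 genes, and in 14 of 21 called members. CCAAT was found in 73.5% of the list and 41.1% of genes, and in 34.6% (lysosome and autophagy) to 100% (cholesterol biosynthesis) of the other lists whose promoters were read. A match describes the letters, not a bound site. The 3 called members with the largest differences, a single listed start and a match are shown to let the element be seen, as the 250 bases before the start, with the CHR in capitals. They are Kif11 (chr19:37376132-37376381, plus strand), Ccnb2 (chr9:70421555-70421804, minus strand) and Ckap2 (chr8:22185820-22186069, minus strand), a microtubule-binding protein that went from -0.11 to -0.77.
Kif11: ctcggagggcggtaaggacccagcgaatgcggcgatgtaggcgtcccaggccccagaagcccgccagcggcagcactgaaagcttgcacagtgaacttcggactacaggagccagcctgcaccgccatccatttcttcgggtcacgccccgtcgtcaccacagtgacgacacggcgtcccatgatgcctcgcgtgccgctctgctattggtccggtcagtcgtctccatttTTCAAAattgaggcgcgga
Ccnb2: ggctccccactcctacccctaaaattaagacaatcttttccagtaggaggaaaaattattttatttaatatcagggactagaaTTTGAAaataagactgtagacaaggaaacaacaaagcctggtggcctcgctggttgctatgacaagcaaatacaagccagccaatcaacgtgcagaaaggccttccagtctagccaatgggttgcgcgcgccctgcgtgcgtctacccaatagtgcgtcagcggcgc
Ckap2: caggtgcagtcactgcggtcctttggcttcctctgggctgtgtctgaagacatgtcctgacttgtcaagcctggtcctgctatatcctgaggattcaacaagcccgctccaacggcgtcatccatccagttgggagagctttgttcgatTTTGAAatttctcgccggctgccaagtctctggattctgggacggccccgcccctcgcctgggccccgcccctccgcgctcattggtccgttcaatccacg
In Kif11 the element, read on the other strand (TTCAAA), lies 16 bases before the start, in Ckap2 98 bases before it and in Ccnb2 164.

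Homologous recombination. Of 18 genes of this list, 5 were called lower (2.1% of all genes) and 0 higher (1.97%). Brca1, which directs repair of double-strand breaks, was higher with MEKi at 24 h and overlapped with the control at 72 h: it read 11.86, 11.74 and 11.79 against 13.00, 13.11 and 12.74, and then 12.67, 12.34 and 12.97 against 12.81, 12.19 and 12.67 (difference -1.26 ± 0.23, adjusted p = 0.012). Over time the control changed by 0.86 and the treated arrays by -0.39. Rad50, part of the complex that senses broken ends, went from 0.82 to -0.44 with no overlap at either time, but of its 2 probe sets only 1 had this sign. Rad51ap1, Blm and Chek1 took the course of the cycle genes (-0.23 to -0.73, -0.11 to -0.68 and -0.49 to -0.84).

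HIF targets. The transcription factor HIF is stabilised when oxygen falls and turns on genes of glycolysis, blood vessel growth and mitophagy. Over time in culture the control arrays raised these genes and the treated arrays did so less: 17 of 24 HIF targets outside glycolysis were called higher at 72 h with DMSO (15.9% of all genes) and 4 with MEKi (15%), with median changes of 0.77 and 0.15. The MEKi effect was called lower at 72 h for 17 of the 24 (8.26% of all genes) and at 24 h for 0 (5.06%), and the difference was called lower for 7 (2.1%) and higher for 0. All but 1 of the 24 differences were negative, with a median of -0.64. This count depended on single arrays: it was 4 without DMSO 24 h replicate 1 and 13 without DMSO 72 h replicate 2.

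Ddit4, an inhibitor of the growth kinase complex mTORC1, read 8.16, 8.36 and 8.35 with DMSO and 8.71, 8.75 and 8.85 with MEKi at 24 h. At 72 h the control had reached 11.14, 11.01 and 11.32 and the treated arrays 9.81, 9.81 and 10.55, so that MEKi lay above the control at 24 h and below it at 72 h (0.48 and -1.10, difference -1.58 ± 0.23, adjusted p = 0.00339). Ndrg1, a stress gene induced by low oxygen and iron lack, turned sign. It read 9.35, 9.12 and 9.28 against 10.43, 10.56 and 10.19 at 24 h, and 9.96, 9.50 and 10.02 against 9.30, 8.76 and 9.36 at 72 h (1.14 and -0.69, difference -1.83 ± 0.23, adjusted p = 0.00189), and all 5 of its probe sets were called the same way. Narf turned sign too (0.53 and -0.38). Bhlhe40, a repressor of the circadian clock genes, went from 0.24 to -0.62, and Higd1a, a mitochondrial protein, from 0.14 to -0.85.

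Bnip3, which marks mitochondria for removal, had effects of 0.56 and -0.99 and Selenbp1, a selenium-binding protein, of -0.20 and -2.40. Selenbp1 read 7.75, 7.69 and 7.79 against 7.27, 7.58 and 7.79 at 24 h and 11.14, 9.96 and 10.58 against 8.35, 7.12 and 9.01 at 72 h. The replicates of 72 h spread widely in both genes: the call was lost in 7 of 12 fits without 1 array for Bnip3 (adjusted p of up to 0.0685) and in 9 for Selenbp1 (up to 0.0843), and under a trended and robust prior for both. Mouse has a closely related gene, Selenbp2, and sharing of signal between them was not tested. Car9 and Vegfa, a carbonic anhydrase and the main vessel growth factor, were not called (differences -0.51, interval -1.16 to 0.14, and -0.46, interval -0.87 to -0.04).

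Glycolysis genes took the same course, with 5 of 19 called lower (2.1% of all genes) and 1 higher (1.97%), and 17 of 19 differences negative. With DMSO 15 of the 19 rose over time (15.9% of all genes) and with MEKi 5 (15%). Pdk1, a kinase that limits the use of pyruvate in the mitochondria, read 8.81, 8.75 and 8.66 against 9.36, 9.31 and 8.79 at 24 h and 11.39, 10.76 and 11.25 against 10.22, 9.27 and 10.32 at 72 h. It overlapped at 24 h and lay apart at 72 h (0.41 and -1.20, difference -1.61 ± 0.34, adjusted p = 0.0212), a call lost in 5 of 12 fits without 1 array. Aldoc, an aldolase, went from 0.86 to -0.53, Slc16a3, the lactate exporter MCT4, from 0.63 to -0.58, Hk2, a hexokinase, from 0.00 to -1.05 and Pkm, pyruvate kinase, from 0.19 to -0.21. Eno2, an enolase of neurons, went the other way. It read 6.41, 6.26 and 6.43 against 6.45, 6.06 and 6.26 at 24 h and 7.03, 6.52 and 6.84 against 8.09, 8.33 and 8.01 at 72 h (difference 1.46 ± 0.19, adjusted p = 0.00189).

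The letters ACGTG, the core of the element HIF binds, were found in 71.4% of 21 HIF list promoters, in 66.7% of 18 glycolysis promoters and in 21.8% of all genes. In the other lists whose promoters were read the share ran from 21.1% (NRF2 and glutathione) to 50% (lysosome and autophagy). The same letters also lie within the E-box CACGTG. The HIF and glycolysis lists were added to the promoter description after the differences had been seen. The upstream bases of the 2 called members with the largest differences, 1 listed start and a match are shown with these letters in capitals: Selenbp1 (chr3:94932833-94933082, plus strand), where they lie 201 bases before the start as the reverse complement, and Ddit4 (chr10:59951771-59952020, minus strand), where they lie 184 bases before it.
Selenbp1: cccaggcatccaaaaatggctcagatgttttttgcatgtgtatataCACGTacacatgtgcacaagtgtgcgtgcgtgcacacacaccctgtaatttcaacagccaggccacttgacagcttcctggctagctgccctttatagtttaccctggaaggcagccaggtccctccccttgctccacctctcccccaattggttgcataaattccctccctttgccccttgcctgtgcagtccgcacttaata
Ddit4: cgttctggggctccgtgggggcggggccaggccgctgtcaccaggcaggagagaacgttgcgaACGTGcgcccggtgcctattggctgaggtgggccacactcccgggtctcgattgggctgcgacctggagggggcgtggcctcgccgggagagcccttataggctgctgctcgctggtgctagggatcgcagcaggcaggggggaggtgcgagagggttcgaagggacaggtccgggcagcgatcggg

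**Figure D4:**
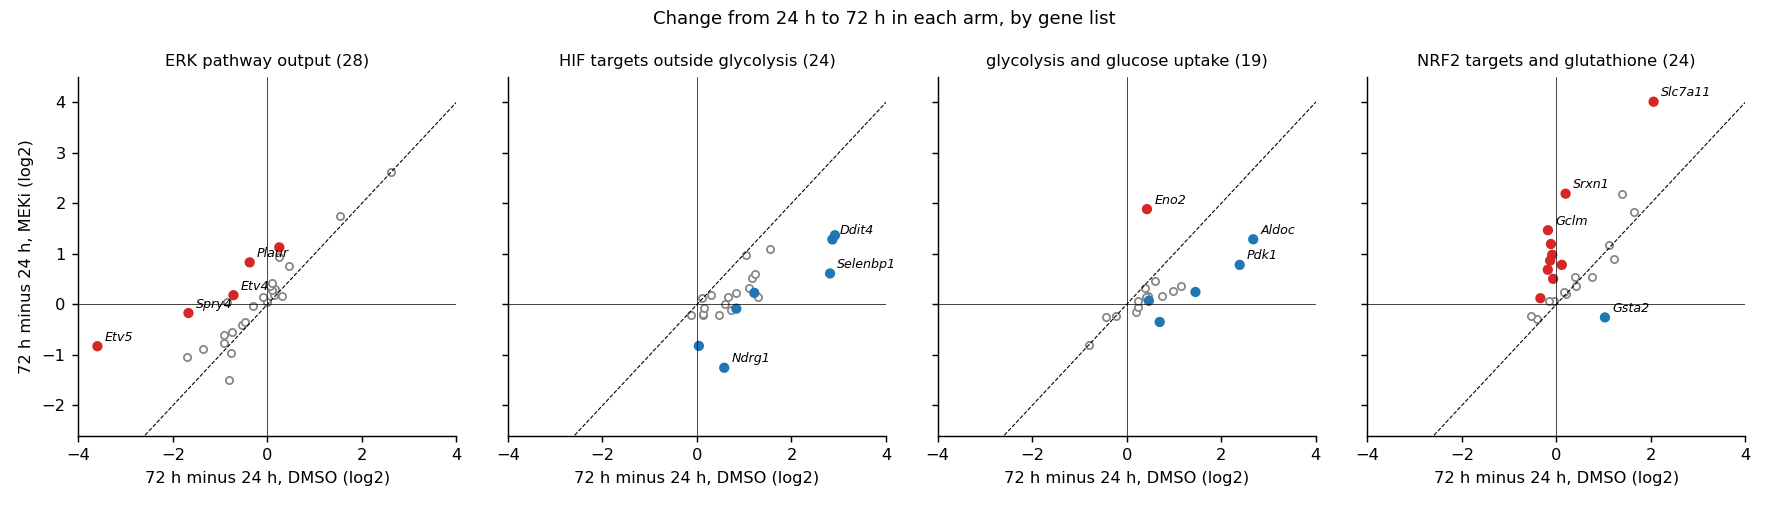
Change from 24 h to 72 h with DMSO (x axis, log2) and with MEKi (y axis, log2) for the genes of 4 lists, with the number of measured genes in brackets. Filled points have a called difference, red where it is positive and blue where it is negative, open points do not, and the dashed line marks equal change; most HIF and glycolysis points lie right of 0 and below the line, and the called NRF2 points, except Gsta2, above it.

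NRF2 targets and glutathione. NRF2 is the transcription factor that turns on genes against oxidative stress, among them those that make and recycle glutathione. In this list 10 of 24 genes were called higher at 72 h relative to 24 h, where 1.97% of all genes were, and 1 lower; the median effect was -0.17 at 24 h and 0.23 at 72 h. With MEKi 12 of the 24 were called higher than the control at 72 h (6.81% of all genes) and 4 at 24 h (4.69%). Over time 18 rose with MEKi (15% of all genes) and 10 with DMSO (15.9%). Leaving out single arrays left 7 to 10 of them called.

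Slc7a11, the cystine importer that feeds glutathione synthesis, turned sign. It read 5.53, 5.78 and 5.71 with DMSO and 4.78, 4.70 and 5.19 with MEKi at 24 h, and 7.86, 7.43 and 7.91 against 8.43, 9.37 and 8.91 at 72 h. Both arms rose, the control by 2.06 and the treated arrays by 4.01 (difference 1.95 ± 0.28, adjusted p = 0.00362). The MEKi readings of 4.78 and 4.70 at 24 h lay within the 2.90 to 5.16 of the fibroblast markers, and how far a floor of the signal limits the early effect was not tested. Srxn1, which repairs oxidised peroxiredoxins, read 9.89, 10.04 and 9.85 against 9.36, 9.44 and 9.52 at 24 h and 10.47, 10.40 and 9.50 against 11.48, 11.99 and 11.43 at 72 h. MEKi was below the control at 24 h and above it at 72 h in all arrays (difference 2.00 ± 0.29, adjusted p = 0.00382), and all 4 of its probe sets were called. Gclm, the modifier subunit of the enzyme that starts glutathione synthesis, went from -0.39 to 1.26.

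Other members had smaller differences of the same sign. Osgin1, an NRF2-induced growth inhibitor, had an effect of -1.09 at 24 h, at 8.45, 8.53 and 8.42 with DMSO against 7.11, 7.50 and 7.53 with MEKi, and of 0.22 at 72 h, where the arms overlapped. Taldo1 and Pgd of the pentose phosphate pathway went from -0.29 to 0.78 and from -0.34 to 0.52, Gsr, glutathione reductase, from -0.56 to 0.43, Nqo1, a quinone reductase, from -0.43 to 0.23, Txnrd1, thioredoxin reductase, from -0.38 to 0.19 and Gss, glutathione synthetase, from -0.01 to 0.45. Gsta2, a glutathione transferase of a family of close copies, was the 1 called lower (1.42 and 0.13). Hmox1, the haem-degrading oxygenase, had 0.44 and 1.24 and was not called (adjusted p = 0.146), while Blvrb, a biliverdin reductase outside the list, was called (-0.10 and 1.72).

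The ARE core TGACNNNGC, the letters NRF2 and small MAF proteins bind, was found on either strand in 6 of 19 list promoters, 31.6%, and in 14% of all genes. In the other lists whose promoters were read the share ran from 11.1% (glycolysis and glucose uptake) to 29.2% (ATF4 and amino acid stress). This motif was added after the differences had been seen. Gclm was the 1 member called higher with a single listed start and a match before it. Its upstream bases (chr3:122245307-122245556, plus strand) are shown with the match, which is the reverse complement and lies 129 bases before the start, in capitals.
Gclm: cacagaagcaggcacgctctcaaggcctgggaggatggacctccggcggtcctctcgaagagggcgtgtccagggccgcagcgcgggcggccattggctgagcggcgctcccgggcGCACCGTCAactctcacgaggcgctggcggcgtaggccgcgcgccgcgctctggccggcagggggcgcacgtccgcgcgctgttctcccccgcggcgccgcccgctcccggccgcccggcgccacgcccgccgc

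Other groups had few calls. Of 30 lysosome and autophagy genes 4 were called higher (1.97% of all genes) and 0 lower (2.1%). Of the 30 differences 18 were negative, with a median of -0.09. The calls of Tfe3, Gabarapl1 and Gla were lost in 11, 8 and 6 of 12 fits without 1 array, that of Gla also in the mean over its probe sets. The largest called difference belonged to Sqstm1, the cargo receptor p62. Sqstm1 read 12.62, 12.59 and 12.63 against 12.29, 12.33 and 12.45 at 24 h and 12.90, 12.97 and 12.89 against 13.36, 13.65 and 13.56 at 72 h (difference 0.86 ± 0.11, adjusted p = 0.00215). Of 32 ribosome biogenesis genes 3 were called higher (1.97% of all genes), Polr1b, Utp20 and Gnl3, and 29 differences were positive. The MEKi effect in this list was called lower for 23 at 24 h (5.06% of all genes) and for 7 at 72 h (8.26%), with medians of -0.42 and -0.13. Each of the 3 called differences lost its call in 6 to 10 of the 12 fits without 1 array. Cholesterol synthesis is the case of a common sign without a call: all 20 differences were negative, with a median of -0.40 and effects of 0.48 at 24 h and 0.00 at 72 h, and 0 passed the limma test, while 12 had an unadjusted p under 0.05. With the replicate block within each time Hmgcs1, which makes HMG-CoA for the pathway, was called (-0.57, adjusted p = 0.0388, against 0.265 without it). Sqle, which commits squalene to sterols, came nearest (-0.52 ± 0.13, adjusted p = 0.0504).

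Immune genes of the cells. Ccl5, a chemokine for T cells, went from -0.25 to 1.09, at 6.13, 6.13 and 5.94 against 5.95, 5.89 and 5.62 at 24 h and 7.09, 7.23 and 7.15 against 8.34, 8.41 and 7.99 at 72 h. It overlapped at 24 h and stood clear at 72 h (difference 1.34 ± 0.16, adjusted p = 0.00136). With Cxcl10 and Tgfb1, which encodes TGF-beta 1 (0.07 and 0.94, of 2 probe sets 1 with this sign), it made up the 3 of 36 cytokine and chemokine genes called, all higher (1.97% of all genes). Of 35 interferon-stimulated genes 3 were called higher (1.97% of all genes), Cxcl10, and the antiviral genes Ifit1 (-0.06 and 0.96) and Ifit3 (0.33 and 1.03). The 17 genes of MHC class I and peptide loading had differences of -0.51 to 0.35, and 0 were called. At an unadjusted p under 0.05 (limma) 3 were lower and 0 higher. By its brightest probe set H2-K1 had effects of 0.33 and 0.46 (interval of the difference -0.11 to 0.36). Likewise H2-D1 had 0.37 and 0.46 (-0.15 to 0.34) and B2m 0.23 and 0.32 (-0.13 to 0.31). Only 2 of 4 probe sets of H2-K1 and 5 of 9 of H2-D1 had a difference of this sign. Cd274, the checkpoint ligand PD-L1, had 0.11 and 0.00 (interval -0.45 to 0.23), and Irf1 -0.18 and 0.06. Lgals3, galectin-3, was the 1 of 24 immune ligands called: it read 13.13, 13.15 and 12.94 against 13.21, 13.28 and 12.78 at 24 h, and 11.72, 11.08 and 11.63 against 12.93, 13.33 and 12.57 at 72 h, with changes over time of -1.60 in the control and -0.15 with MEKi.

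Pigment genes had few calls. Slc24a4, a potassium-dependent sodium and calcium exchanger, was the 1 of 23 melanin and melanosome genes called (1.21 and -0.16, a call lost in 3 of 12 fits without 1 array). Tyr, the enzyme that starts melanin synthesis, had effects of 0.35 and 0.16 by its brightest probe set (interval of the difference -0.39 to 0.00), while the mean over its 3 probe sets gave a difference of -0.52 (adjusted p = 0.0599) and 1 of them was called. In the same list, Pmel had 0.17 and 0.07, at group means of 13.95 to 14.12, near the highest value on any array, 14.47. An effect of a signal ceiling was not tested. Mitf, the master regulator of melanocytes, had 0.34 and -0.14 (interval -1.01 to 0.05). Of its lineage companions Sox5 and Tfap2a were called lower (0.06 and -0.60, and -0.02 and -0.46), the latter lost in 10 of 12 fits without 1 array. The mean over the 7 probe sets of Sox5 was not called (-0.22, adjusted p = 0.162).

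Among genes outside these groups, several of the largest differences belonged to genes with a called MEKi effect at 72 h only. Ecm1, an extracellular matrix protein, read 6.15, 6.09 and 6.20 against 6.21, 6.42 and 6.24 at 24 h and 5.90, 5.74 and 5.47 against 7.69, 7.73 and 7.41 at 72 h (difference 1.76 ± 0.16, adjusted p = 0.000205). Uchl1, a ubiquitin hydrolase of neurons, went from -0.03 to 1.62, Mllt11 from -0.30 to 1.54, and Nppb, the precursor of the natriuretic peptide BNP, from -0.19 to 1.46 while its control fell by 2.27. Map2k6, a kinase that activates p38, read 6.98, 7.07 and 7.01 against 7.14, 7.24 and 7.10 at 24 h and 7.25, 7.35 and 6.92 against 5.66, 5.45 and 6.01 at 72 h. Its control was level over time (0.15) and the treated arrays fell by 1.45 (difference -1.61 ± 0.18, adjusted p = 0.000957). Adam19, a membrane metalloprotease, went from 0.32 to -1.16 and Ak4, a mitochondrial adenylate kinase, from -0.04 to -1.53, with 3 of its 5 probe sets of this sign.

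Others were largest at 24 h. Tinagl1, a secreted matrix protein, read 10.10, 10.06 and 10.16 against 8.26, 8.23 and 9.03 at 24 h and 8.78, 8.85 and 8.25 against 9.17, 9.18 and 9.25 at 72 h (difference 2.17 ± 0.26, adjusted p = 0.00136). Mest, an imprinted gene of growth, went from -1.79 to -0.08, with changes over time of -1.84 in the control and -0.13 with MEKi. Mgll, the lipase that splits monoacylglycerols, faded in part, from 5.11-fold to 2.64-fold higher with MEKi, a call lost in 9 of 12 fits without 1 array. Adamtsl4, a matrix protein, had the largest difference of the 4 genes that grew upwards: it read 5.58, 5.84 and 5.86 against 6.56, 6.30 and 6.35 at 24 h and 6.31, 6.41 and 6.12 against 8.73, 7.96 and 7.90 at 72 h (difference 1.27 ± 0.25, adjusted p = 0.0146). Kcnj13, a potassium channel with a larger numerical difference (1.62 and 3.07), was not called (adjusted p = 0.173), but was with the replicate block within each time (adjusted p = 0.0222).

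Of the 40 gene lists, 27 had a called member and 13 had none; at an unadjusted p under 0.05 (limma), 16 of the 233 genes in those 13 were higher and 30 lower. Those without a call included oxidative phosphorylation (28 genes, median difference -0.08), cytosolic ribosomal proteins (19), JAK/STAT receptors and regulators (25), PI3K, AKT and FOXO genes (24), extracellular matrix and proteases (30), carbonic anhydrases (15) and 11 housekeeping genes. Among called genes with at least 2 probe sets of their own, 333 of 441 had all of them on one side, and 1 had a probe set called the other way. Changes in transcription and in RNA stability cannot be told apart in these values.

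**Figure D5:**
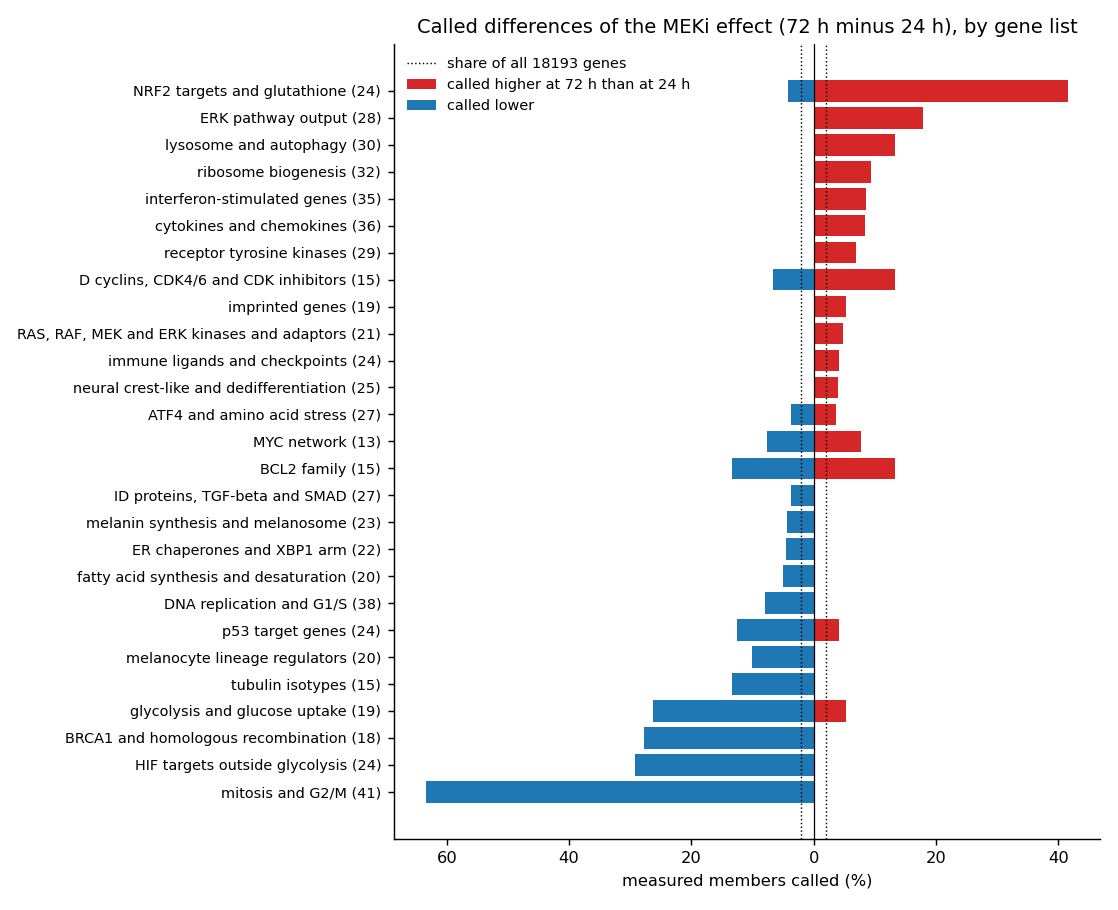
Share of measured members (x axis, %) whose MEKi effect was called higher (red, right) or lower (blue, left) at 72 h than at 24 h, for the 27 gene lists with a called member, with the number measured in brackets. The dotted lines mark the shares of all 18193 genes (1.97% higher and 2.1% lower); mitosis and G2/M reaches furthest left with 26 of 41, and NRF2 furthest right with 10 of 24.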

How the data were processed

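Total RNA (200 ng) of 12 cell pellets was labelled with a 3' IVT kit and hybridised to Affymetrix whole-genome mouse arrays. The authors deposited log2 values per probe set, background-corrected, quantile-normalized and summarised by RMA and given to 2 decimals. RMA versions are not given in the sources used here. RMA makes the arrays' distributions alike, so a shift of all transcripts would not be seen.

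From these values 1 model of 4 group means was fitted to all 12 arrays with limma 3.58.1 in R 4.3.3, without a block. Tests were two-sided, adjusted over 45037 probe sets, with a threshold of 0.05. Of these, 34945 were paired with 1 gene, 932 with several and 9160 with none in the platform annotation. A gene was read from its own probe set with the highest mean. Named genes were the 15 highest and 15 lowest called, up to 6 per class, up to 4 called members per list and 36 preset genes, of which 34 were measured. Other list members, and Plk1, Foxm1 and Hmox1, were named after their values were seen. The members and lists were chosen with earlier results of these data known. The scripts were tested on simulated data. Alternatives were a replicate block, each array left out, other scaling, priors, weights and filters, and the mean over probe sets. Promoters came from RefSeq (GRCm38.p6) and the HIF, glycolysis and NRF2 lists were added there after the differences were seen.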

Additional observations from a re-analysis of the deposited data

Results flagged for a closer look

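The MEKi effect differed between 24 h and 72 h, by the test of the difference itself, for 740 genes, and for 41 of them the effect was called at both times in opposite directions. Among those that turned sign the largest differences belonged to Tmem179 (2.82), Slc7a11 (1.95), Cxcl10 (1.77) and Cela1 (1.77) upwards and to Col14a1 (-2.22) and Ndrg1 (-1.83) downwards. The annotation paired 79 of the 1358 called probe sets with no gene, so these entered no comparison of genes. Groups of 3 arrays were too small to test for a sample far from the others.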

How the results depend on the processing

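The difference kept its sign under every alternative run in the 94 named genes that were called. Of the 24 that were not, 4 had values on both sides of 0: Dusp6 (down to -0.01 without 1 array), Tmem140 (down to -0.11 likewise), H2-K1 (-0.22 as the mean over probe sets) and Egr1, whose difference ranged from -1.21 (without MEKi 72 h replicate 3) to 0.77 when 1 array was left out. Of the 94, 64 were called in all 12 fits without 1 array. With 3 arrays a group, numbers of calls moved more than directions, and causes were not tested.

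Without 1 array, called probe sets ranged from 668 to 1798, genes called higher from 161 to 439 and lower from 208 to 514. The mitosis list ranged from 19 to 29, NRF2 from 7 to 10, HIF from 4 to 13 and ERK output from 5 to 6. Genes that turned sign ranged from 17 (without MEKi 24 h replicate 2) to 63, that grew from 2 to 30, that faded from 0 to 16, called at 72 h only from 237 to 545 and at 24 h only from 69 to 266. Genes with a MEKi effect ranged from 633 to 2116 at 24 h and from 1811 to 2721 at 72 h, and those changed over time from 5099 to 6279 with DMSO and from 4715 to 6236 with MEKi.

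The labels do not say what replicate numbers share. Within a time, DMSO and MEKi arrays of one number deviated together with r of 0.073 to 0.189 over all probe sets, against -0.156 to 0.032 for different numbers. Of the 6 pairs of one number 5 passed 0.1, so not every pair did and the arrays were not taken as paired. Over brighter probe sets, looked at afterwards, r of these pairs was 0.207 to 0.307. As a hint from the data, 12 of 12 arrays correlated best with their own number within a time. The replicate block within each time gave 1844 called probe sets, 11 HIF genes, 74 genes that turned sign, 30 that grew and 18 that faded. It called 967 genes, 674 of them among the 740, and among named genes ended the calls of Tfap2a, Tfe3, Gnl3, Mlxip and Rasa2 and added those of Hmgcs1 (adjusted p = 0.0388), Insig1 (0.0472) and Kcnj13 (0.0222). A trended and robust prior gave 2106 probe sets, 577 genes higher and 619 lower, 86 that turned sign, 59 that grew, 14 that faded and 349 at 24 h only. Array weights gave 2606 probe sets, 638 and 737 genes, 11 HIF genes, 97, 86 and 17 in the same 3 classes, 489 at 24 h only and 3412 called at 24 h. Testing only probe sets brighter than the median gave 2301 probe sets, 644 and 648 genes, 101, 69 and 19 in these classes, 687 at 72 h only, 370 at 24 h only and 2662 called at 24 h. Asking for at least 2-fold left 185 probe sets, 47 and 55 genes, 0 mitosis, 5 NRF2, 4 HIF and 3 ERK output genes. The mean over probe sets gave 48 genes that grew and 10 that faded, and separate fits of 6 arrays 1669 genes called at 72 h.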
